A study of Homo sapiens with 6 samples.

Results

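The genes described here encode *REST* and the corepressor proteins that work with it. There were 10 members, of 62710 genes in the deposited table. They were *REST*, the CoREST genes *RCOR1*, *RCOR2* and *RCOR3*, the histone demethylase gene *KDM1A*, the deacetylase genes *HDAC1* and *HDAC2*, the scaffold gene *SIN3A*, and *PHF21A* and *HMG20B*. They were chosen by their known role in the complex, with no limit on any value. The list was nevertheless put together with the normalized values of parental and resistant cells in view, so the difference between these groups is given for the members as a description and supports nothing.

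The cells were H526, an established small cell lung cancer line, kept in RPMI-1640 with fetal bovine serum. The parental group was cultured without a named treatment. The onvansertib-resistant group came from the same line after a year in onvansertib, an inhibitor of the mitotic kinase PLK1, raised in steps from 10 to 75 nM. Each group had 3 libraries from RNA taken at separate times, parental libraries 1, 2 and 3 and resistant libraries 7, 8 and 9. Whether the selection was repeated is not given in the sources used here, so errors and p-values describe the spread between these RNA samples, which may be technical. The comparison asks which genes differ between cells selected in the drug and the parental line. Whether the drug was present when RNA was taken is not stated in the study's methods. The tuft cell factor *POU2F3*, which marks one subtype of this cancer, was between 24511 and 27873 in all 6 libraries.

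REST is a zinc finger repressor that binds a DNA element called RE1 near genes of neurons and secretory cells. Its amino end recruits SIN3A and its carboxyl end recruits CoREST, and both bring histone deacetylases. CoREST also carries the demethylase KDM1A, with PHF21A and HMG20B as further subunits of the same complex. In tissues outside the nervous system REST keeps RE1 genes silent, and in many neuroendocrine tumours, small cell lung cancer among them, its level is low and RE1 genes are expressed.

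RE1 has a left arm, CAGCACC, and a right arm, GGACAG, with 2 bases between them in its common form. The human genome sequence (GRCh38) was searched on both strands for these arms within 5 kb of the start of each gene in Gencode v44. The matches below are exact and belong to genes whose values are described later. They are shown because they let the element be read at genes that were lower in resistant cells, namely *CHGA*, *CHGB*, *SYP*, *SYN1* and *CHRNB2*, and at *GRIN1* and *CHAT*, which were higher. Capitals mark the arms, and each run of 21 bases is given 5′ to 3′ on the strand that holds the match.

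CHGA, chr14:92923523-92923543, plus strand: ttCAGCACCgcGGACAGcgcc
CHGB, chr20:5911704-5911724, plus strand: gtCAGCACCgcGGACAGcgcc
SYP, chrX:49200122-49200142, minus strand: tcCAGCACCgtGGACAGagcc
SYN1, chrX:47620070-47620090, minus strand: ttCAGCACCgcGGACAGtgcc
CHRNB2, chr1:154567954-154567974, plus strand: ttCAGCACCacGGACAGcgcc
GRIN1, chr9:137139260-137139280, plus strand: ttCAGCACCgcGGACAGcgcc
CHAT, chr10:49607126-49607146, plus strand: gcCAGCACCctGGACAGctcc

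Counted from the annotated start in the direction of transcription, the match lay at 382 bases in *CHGA*, 203 in *CHGB*, 85 in *SYP* and 185 in *CHRNB2*. It lay at -224 in *SYN1*, 923 in *GRIN1* and -1960 in *CHAT*, where a negative position is before the start. The 21 bases at *CHGA* and *GRIN1* were letter for letter the same, while the values of these genes moved in opposite directions. The same 21 bases lay at 1318 in *PTPRN*, which, like *CHGA*, was lower in resistant cells. A match is a description of letters, and binding of REST was not measured.

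Values are gene counts that the authors normalized with DESeq2, so they are a normalized signal and not whole reads. The value of 1 read, read off as the most common low value of each library, put the depth between 25659530 and 28502084 reads in parental and between 22323519 and 23294781 in resistant libraries. Only 45.4% to 59.8% of the low values of a library lay within 0.05 of a whole number of reads. Depths and limits in reads are therefore estimates. An upper limit of 3 reads applies where a gene is listed at 0. It equals a value between 2.67 and 3.23, and covers counting error only. The 16347 genes whose mean value reached 10 were compared as log2(value + 1) with limma, and a gene was called at a Benjamini-Hochberg adjusted p under 0.05. A log2 difference is positive where resistant cells were higher, and the added 1 makes it too small for low genes. Of all genes tested, 37.7% were called in either direction, 17.8% higher and 19.8% lower, and in 49.9% the 2 groups of values did not overlap. For 1 gene alone, exact two-sided permutation of 3 libraries against 3 has 0.10 as its smallest p.

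*REST* (ENSG00000084093) lies on chromosome 4 from 56907876 to 56966808. Its normalized value was 940.4, 804 and 941 in parental libraries 1, 2 and 3, and 1495, 1321 and 1361 in resistant libraries 7, 8 and 9. Every resistant library was above every parental library. The means were 895 ± 79.2 and 1392 ± 91.0 (SD, n = 3 in each group), a ratio of 1.56 and a log2 difference of 0.64 (standard error 0.09). It was the largest difference of the 10 members in either direction on this scale. In the window of 51 tested genes around it on the chromosome, itself included, the median log2 difference was -0.01, so the window as a whole did not move with it. The table sums all transcripts of a gene, and full-length and truncated forms of *REST* were not told apart.

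Of the 10 members, all passed the minimum mean, 3 were called higher and 4 lower in resistant cells, against 17.8% and 19.8% of all genes tested. The groups did not overlap in 7 of the 10, against 49.9% of all genes. Because this contrast was in view when the members were listed, nothing is read from these shares. The median log2 difference of the members was -0.01, and that of all genes tested was -0.000858. The members therefore split into genes that were higher, genes that were lower and genes whose groups overlapped.

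**Figure D1:**
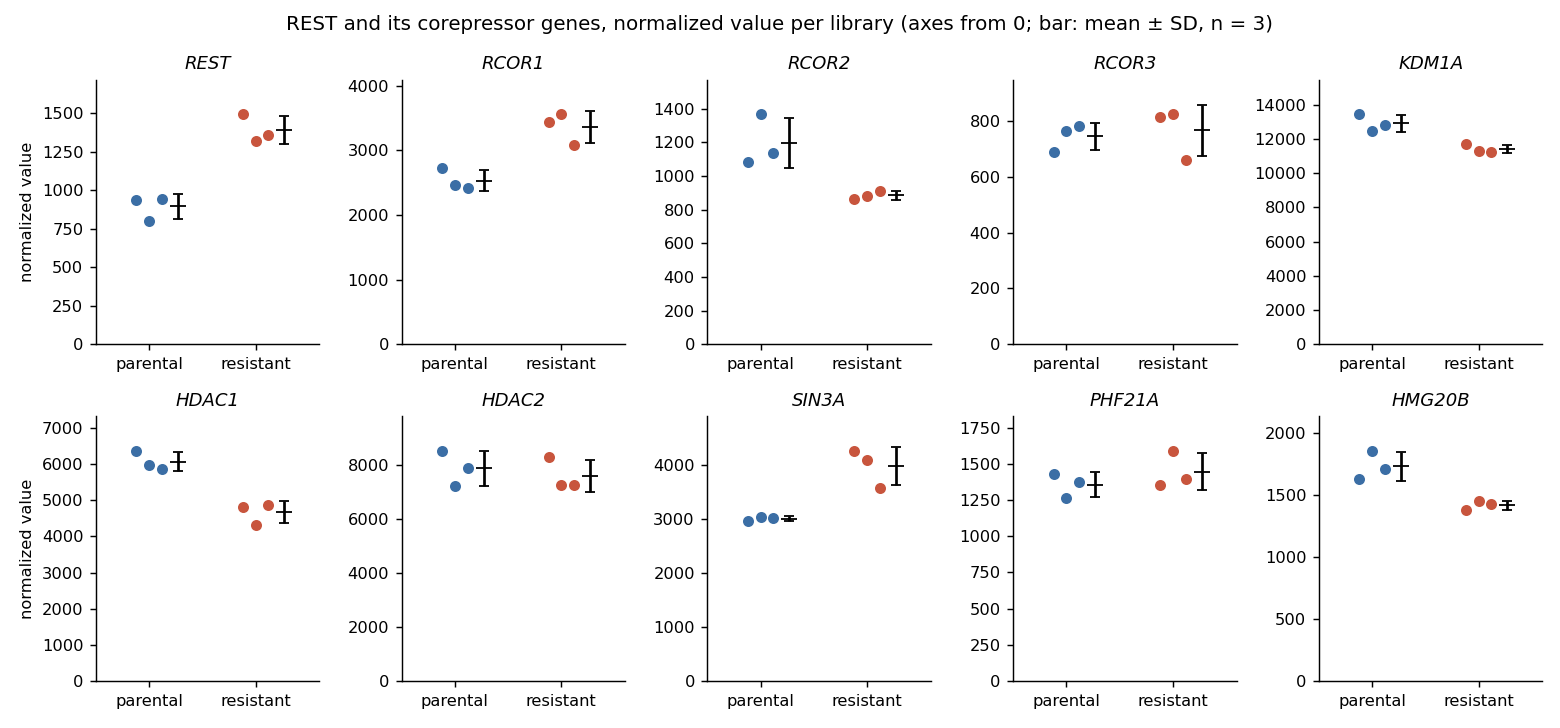
Normalized value of each of the 10 members (vertical axes, each starting at 0) in the 3 parental (blue) and 3 resistant (red) libraries; points are libraries and bars are mean ± SD. *REST*, *RCOR1* and *SIN3A* were higher in every resistant library, *RCOR2*, *KDM1A*, *HDAC1* and *HMG20B* lower, and *RCOR3*, *HDAC2* and *PHF21A* overlapped.

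The 3 CoREST genes encode related scaffold proteins that bind KDM1A and differ in tissue and activity. *RCOR1* (ENSG00000089902, chromosome 14, 102592649 to 102730561) was 2727, 2459 and 2416 in parental and 3447, 3560 and 3091 in resistant libraries. Its means were 2534 ± 169 and 3366 ± 245 (SD, n = 3), with a log2 difference of 0.41 (standard error 0.08) and no overlap between the groups. *RCOR2* (ENSG00000167771, chromosome 11, 63911230 to 63917164), the CoREST gene best known from neural and stem cells, moved the other way.

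*RCOR2* was 1085, 1367 and 1139 in parental and 864, 879 and 914 in resistant libraries, again with no overlap. Parental library 2 stood above the other two. The means were 1197 ± 150 and 886 ± 25.5 (SD, n = 3), a log2 difference of -0.43 (standard error 0.10). *RCOR3* (ENSG00000117625, chromosome 1, 211258377 to 211316385) was 689, 763 and 783 in parental and 813, 825 and 661 in resistant libraries. Its groups overlapped, resistant library 9 was the lowest of the 6, and the log2 difference of 0.04 was smaller than its standard error of 0.11.

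Divided by the length of the reference transcript, the levels of the 3 CoREST genes can be set beside each other. Per kilobase, *RCOR1* made up 43.4% ± 3.72 of their sum in parental and 55.2% ± 1.18 in resistant libraries (SD, n = 3). *RCOR2* made up 40.3% ± 3.42 and 28.7% ± 2.30, and *RCOR3* 16.4% ± 1.23 and 16.1% ± 1.14 (SD, n = 3). The level of *RCOR1* per kilobase was 1.27, 0.911 and 1.08 times that of *RCOR2* in parental libraries 1, 2 and 3. It was 2.02, 2.05 and 1.71 times that of *RCOR2* in resistant libraries 7, 8 and 9. In parental libraries either gene could be the higher one, and in each resistant library *RCOR1* was.

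*KDM1A* (ENSG00000004487, chromosome 1, 23019443 to 23083689) removes methyl groups from lysine 4 of histone H3 and had the highest level of the members per kilobase in both groups. It was 13447, 12441 and 12832 in parental and 11705, 11284 and 11251 in resistant libraries. The groups did not overlap, but the log2 difference was only -0.18 (standard error 0.06). Its call was lost in 9 of 14 alternative settings. Among them were quantile normalization, where the difference was -0.03, and the fits without parental library 1 or 3 or without any one of the resistant libraries, where it was between -0.20 and -0.15.

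*HDAC1* (ENSG00000116478, chromosome 1, 32292083 to 32333635) and *HDAC2* (ENSG00000196591, chromosome 6, 113933028 to 114011308) encode closely related deacetylases that serve both the SIN3A and the CoREST arm. *HDAC1* was 6369, 5981 and 5870.4 in parental and 4805, 4316 and 4880.1 in resistant libraries. Every resistant library was below every parental one, with means of 6074 ± 262 and 4667 ± 306 (SD, n = 3) and a log2 difference of -0.38 (standard error 0.07). *HDAC2* was 8518, 7223 and 7886 in parental and 8285, 7250 and 7266 in resistant libraries, and these values overlapped, with a log2 difference of -0.05 (standard error 0.08). The ratio of the *HDAC1* to the *HDAC2* value was between 0.744 and 0.828 in parental libraries and between 0.580 and 0.672 in resistant ones.

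*SIN3A* (ENSG00000169375, chromosome 15, 75369379 to 75455842), the scaffold that meets the amino end of REST, was 2963, 3035 and 3026 in parental and 4261, 4091 and 3580.5 in resistant libraries. The groups did not overlap, and the log2 difference was 0.40 (standard error 0.07). *HMG20B* (ENSG00000064961, chromosome 19, 3572777 to 3579088), a DNA-bending subunit of the CoREST complex, was 1628, 1855 and 1708 in parental and 1377, 1450 and 1427 in resistant libraries. It was lower in all resistant libraries, with a log2 difference of -0.29 (standard error 0.08). *PHF21A* (ENSG00000135365, chromosome 11, 45929319 to 46121454), which reads unmethylated lysine 4 of histone H3, was 1432, 1263 and 1379 in parental and 1352, 1590.3 and 1393 in resistant libraries. These groups overlapped, and the log2 difference was 0.09 (standard error 0.09).

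Several members shared their difference with their chromosome neighbours. The window of 51 tested genes around *RCOR1* had a median log2 difference of 0.32, and that around *SIN3A* one of 0.47. Around *RCOR2* the median was -0.29, and around *HMG20B* it was -0.19. After this median was taken off in each library, the log2 difference was 0.09 for *RCOR1*, -0.07 for *SIN3A*, -0.14 for *RCOR2* and -0.10 for *HMG20B*, and none of these was past the threshold. *REST* at 0.65, *HDAC1* at -0.29 and *KDM1A* at -0.22 stayed past it. Gene copies were not measured, and the part of a shift of whole segments in these values was not tested.

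**Figure D2:**
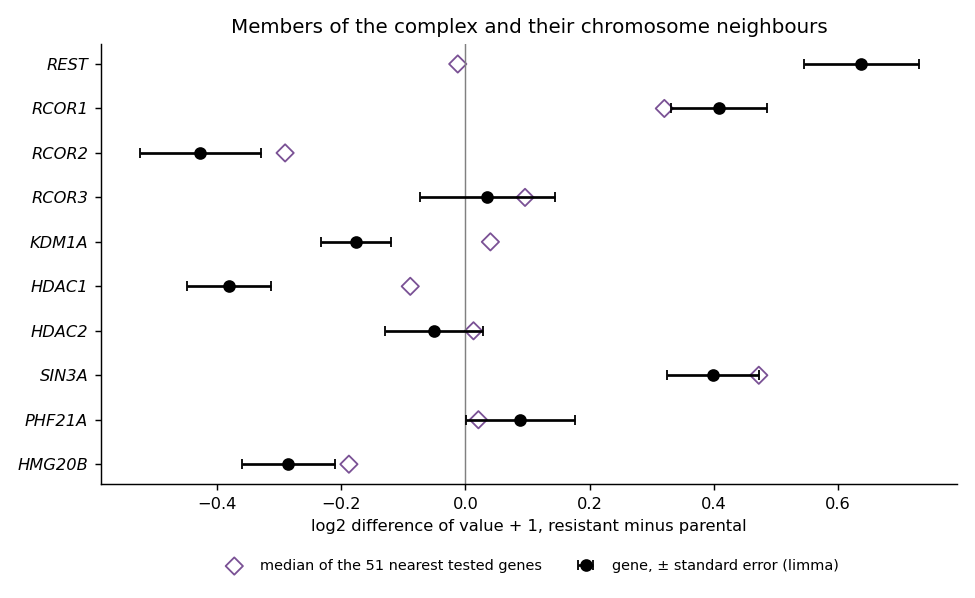
Log2 difference of value + 1, resistant minus parental (horizontal axis), for each member with its standard error by limma (black) and for the median of the 51 tested genes around it (open diamonds). For *REST* the gene stood at 0.64 and its neighbours at -0.01, while for *SIN3A* the gene stood at 0.40 and its neighbours at 0.47.

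The order of the levels per kilobase was alike in both groups apart from *REST*. In parental libraries it ran from *KDM1A* at 4184 ± 164, *HDAC1* at 2868 ± 124, *HMG20B* at 1092 ± 72.6 and *HDAC2* at 809 ± 66.5 down to *REST* at 122 ± 10.8 (normalized value per kilobase, SD, n = 3). *SIN3A*, *RCOR1* and *RCOR2*, between 411 and 447, overlapped one another in order, and so did *PHF21A* and *RCOR3*. In resistant libraries *REST* stood at 190.5 ± 12.4 and overlapped with *PHF21A* above it and *RCOR3* below it. *KDM1A* was 34.3 ± 2.22 times *REST* per kilobase in parental and 19.5 ± 0.849 times in resistant libraries (SD, n = 3). These levels assume that the reference transcript was the one expressed, which matters most for *HDAC2*, whose reference transcript of 9737 bases was the longest.

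Among the 5 genes whose values followed *REST* most closely over the 6 libraries were *MTA1-DT*, *FKBP3*, *SLC35D2* and *TSC22D1-AS1*, with Pearson's r between 0.995 and 0.997 on the log2(value + 1) scale. All 6 libraries are shared by these genes and fall into 2 groups, and 1386 genes in all, 8.48% of those tested, had an r of at least 0.9. The likeness is a description only.

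Other subunits of the CoREST and SIN3 complexes and enzymes linked to REST were taken as a list of 31 genes, all of them tested. Of these, 8 were called higher and 8 lower in resistant cells, 25.8% in each direction against 17.8% and 19.8% of all genes tested, and the median log2 difference was -0.02. *GFI1*, a zinc finger repressor that also recruits CoREST and KDM1A, was 16.6, 22.6 and 38.3 in parental and 115, 120 and 111 in resistant libraries. Its log2 difference was 2.19 (standard error 0.31, adjusted p = 0.000368 by limma). Its relative *GFI1B*, at 3246 ± 49.2 and 3741 ± 177 (SD, n = 3), had a log2 difference of 0.20. It was called with all 6 libraries, but not without the trend of limma nor without parental library 1, 2 or 3 or resistant library 7 or 9, with 0.17 to 0.22 in those 5 fits. *RREB1*, a zinc finger factor found with CoREST and CtBP, rose from 1716 ± 68.1 to 2333 ± 116 (SD, n = 3).

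*ING1*, the reader of methylated lysine 4 in the SIN3 complex, had the smallest p of the list. It was 1322, 1367 and 1281 in parental and 688, 749 and 720 in resistant libraries, a log2 difference of -0.88 (standard error 0.08, adjusted p = 2.35e-05 by limma). *CTBP2* and *CTBP1*, corepressors that bind beside CoREST, had log2 differences of -0.32 and -0.24. *SMARCA4*, the chromatin remodelling ATPase, had one of -0.28, which was -0.13 and not called after quantile normalization, and *SINHCAF*, a SIN3 subunit, one of -0.27. The SIN3 subunits *BRMS1L* and *ARID4A* on chromosome 14 and *SUDS3* on chromosome 12 were called at 0.65, 0.53 and -0.57. Their neighbours had medians of 0.49, 0.37 and -0.52, and none of these 3 calls held after local centring. *CTBP1* also lost its call there and without the trend of limma.

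REST protein is short-lived, and its activity is also set by splicing. The neural splicing factor SRRM4 adds an exon that yields a truncated REST, and SRRM3 is its close relative. *SRRM4* was listed at 0 in all 6 libraries. *SRRM3* was 239, 283 and 212 in parental libraries and 9.37, 26.5 and 14.3 in resistant libraries, so that the lowest parental library was far above the highest resistant one. Its means were 245 ± 35.6 and 16.7 ± 8.82 (SD, n = 3), a ratio of 14.6 and a log2 difference of -3.90 (standard error 0.34, adjusted p = 1.82e-05 by limma). The neighbours of *SRRM3* on chromosome 7 had a median of -0.41. Inclusion of the exon in *REST* itself cannot be read from a table of genes.

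The ubiquitin ligase SCF with βTrCP marks REST for degradation, USP7 and USP15 counteract it, and small phosphatases of the CTDSP family stabilize REST. Of 15 genes for turnover and splicing, 13 were tested, 0 were called higher and 5 lower, 38.5% against 19.8% of all genes, with a median log2 difference of -0.19. *FBXW11*, one of the pair of βTrCP genes, was 2054, 2008 and 2087 in parental and 1101, 1191 and 984 in resistant libraries. It fell by 0.91 on the log2 scale (standard error 0.08, adjusted p = 2.7e-05 by limma). *BTRC*, the other, was at 685 ± 22.6 and 744 ± 134 (SD, n = 3), with overlap and an adjusted p of 0.564 by limma.

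*CUL1*, *USP15* and *CTDSP2* were called with log2 differences of -0.49, -0.51 and -0.49. Their neighbours stood at -0.32, -0.50 and -0.52, and after local centring the calls were lost, at -0.18, -0.01 and 0.04. *USP7* was at 5930.1 ± 266 and 5446 ± 162 (SD, n = 3) and was not called (adjusted p = 0.14 by limma). PLK1, the target of onvansertib, has been described to drive the degradation of REST together with TEX14. *PLK1* was 5556, 4798 and 5578 in parental and 5819, 5288 and 5420 in resistant libraries, which overlapped. *TEX14* was between 4.32 and 17.8 in all libraries and was not tested.

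RE1 target genes from textbook knowledge were taken in a neuronal list of 50 and a secretory and neuroendocrine list of 17. Both lists were written with earlier results of these data known, so they are no independent evidence of a direction. Of the neuronal list, 35 were tested, 24 were called lower and 2 higher, and the median log2 difference was -1.11. Of the secretory list, 10 were tested and all 10 were called lower, with a median of -2.90. The minimum mean was taken over all 6 libraries, so some genes passed it through their parental values alone. Among them were *VGF*, *PTPRN* and *CPLX1*, with resistant means of 6.77, 3.47 and 3.82. Genes high only in resistant cells could pass in the same way. The counts and medians of both lists are therefore a description. Over both lists 75.6% of the tested genes were lower, against 19.8% of all genes tested, and the groups did not overlap in 82.2%, against 49.9%. The 22 genes not tested had means between 0 and 3.51, among them *STMN2* and *BDNF*, which no library held above the 3-read limit.

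**Figure D3:**
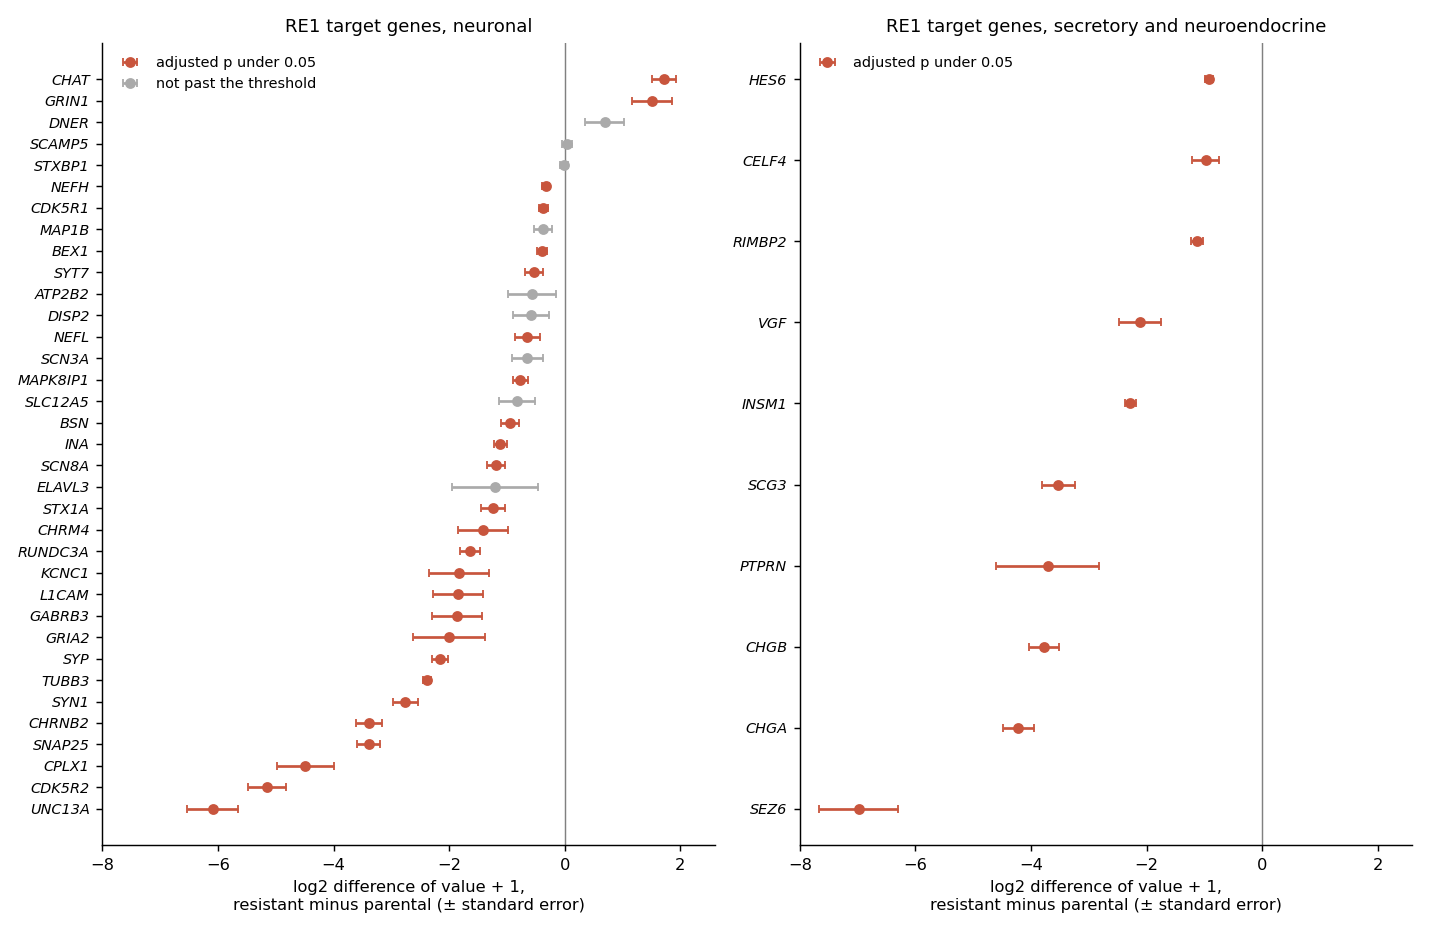
Log2 difference of value + 1, resistant minus parental (horizontal axes), with standard errors by limma, for the tested genes of the neuronal (left, 35 genes) and the secretory and neuroendocrine list (right, 10 genes); red points passed an adjusted p of 0.05 and grey points did not. All but 4 of the 45 genes lie below 0, and *CHAT* and *GRIN1* are the called genes above it.

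*TUBB3*, a neuronal tubulin, was 4738, 4100.3 and 4257 in parental and 841, 811 and 858 in resistant libraries, a log2 difference of -2.38 (standard error 0.08). *SYP*, the synaptic vesicle protein synaptophysin used to diagnose neuroendocrine tumours, was 1428, 1384 and 1192 in parental and 251, 293 and 359.6 in resistant libraries. Its means differed 4.43 times (adjusted p = 2.96e-06 by limma). Both genes were lower in every resistant library, and neither fell to the limit of detection.

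*SNAP25*, which drives vesicle fusion, was 441, 377 and 323 in parental and 30.4, 43.03 and 32.7 in resistant libraries, and its means differed 10.8 times. *SYN1*, a vesicle phosphoprotein, was 249.95, 219 and 189 in parental and 29.7, 27.3 and 38.1 in resistant libraries. *CHRNB2*, a subunit of the nicotinic receptor, was 1161, 882 and 771 in parental and 79.2, 68.4 and 123 in resistant libraries. These genes had log2 differences of -3.39, -2.76 and -3.39. *CDK5R2*, an activator of the kinase CDK5, and *UNC13A*, which primes vesicles, had resistant means close to the value of 3 reads, 3.17 ± 1.11 and 3.44 ± 2.78 (SD, n = 3), from 144 ± 13.7 and 281 ± 108 in parental cells.

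The granule proteins chromogranin A and B are encoded by *CHGA* and *CHGB*. *CHGA* was 306, 247 and 210.1 in parental and 12.2, 9.88 and 16.4 in resistant libraries, a log2 difference of -4.22 (standard error 0.26, adjusted p = 2.81e-06 by limma). *CHGB* was 293, 226 and 204 in parental and 21.7, 12.9 and 16.0 in resistant libraries. *SCG3*, which sorts granule cargo, fell from 193 ± 66.9 to 15.2 ± 1.23 (SD, n = 3). *CHGA* and *SCG3* lie where their neighbours were higher, with medians of 0.40 and 0.57, so they moved against their surroundings.

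*INSM1*, a zinc finger factor of neuroendocrine cells, was 6729, 5918 and 5626 in parental and 1191, 1385 and 1183 in resistant libraries, a log2 difference of -2.28 (adjusted p = 1.64e-07 by limma). *HES6*, a helix-loop-helix factor of neurogenesis, fell by 0.92, and *RIMBP2*, a protein of the release site, by 1.12 on the log2 scale. The neighbours of *RIMBP2* had a median of -0.69, and after local centring its log2 difference was -0.44 and still called. In the other direction, *CHAT*, the enzyme that makes acetylcholine, was 43.7, 59.1 and 61.0 in parental and 196, 193 and 155 in resistant libraries (log2 difference 1.72, adjusted p = 0.000156 by limma). *GRIN1*, a subunit of the NMDA receptor, was 12.7, 16.8 and 22.3 in parental and 37.7, 49.1 and 67.6 in resistant libraries (log2 difference 1.52, adjusted p = 0.00628 by limma).

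**Figure D4:**
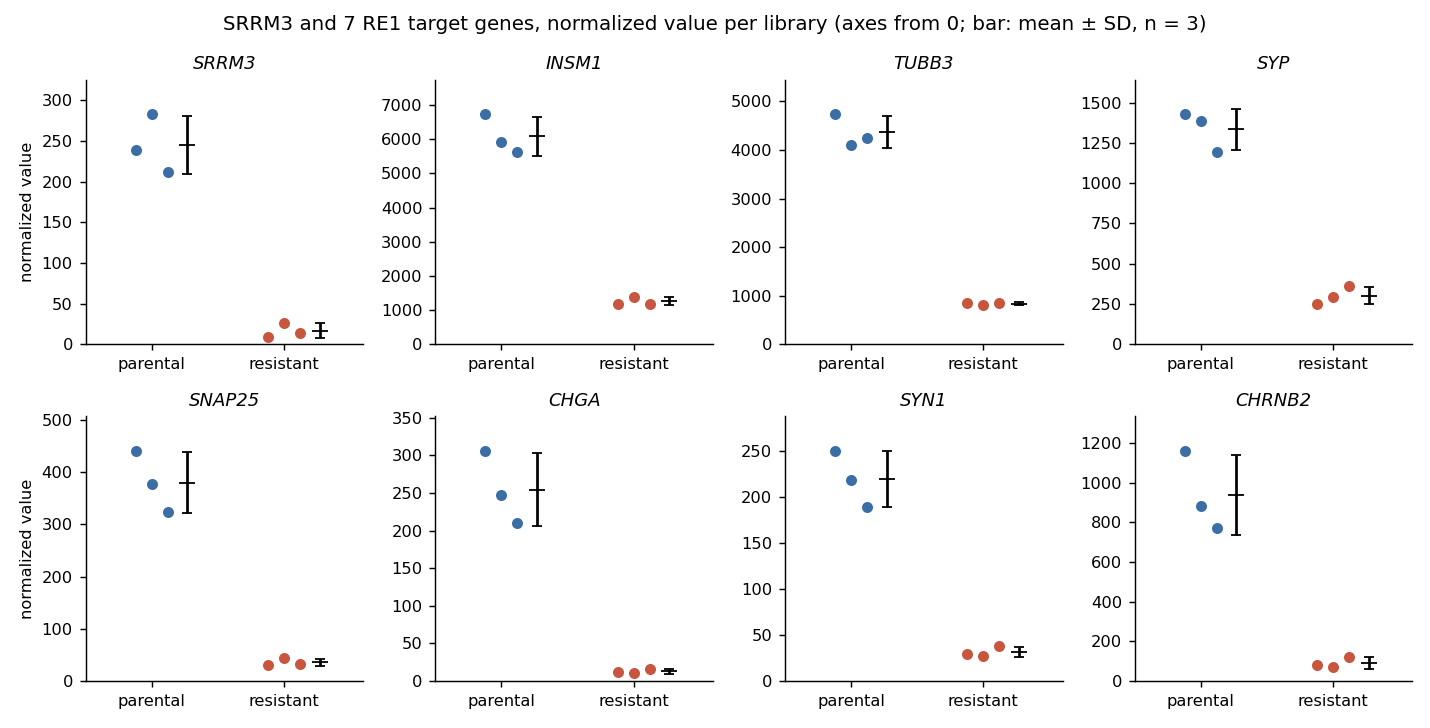
Normalized value of *SRRM3* and 7 genes of the written RE1 target lists. Vertical axes each start at 0. Points are the 3 parental (blue) and 3 resistant (red) libraries, and bars are mean ± SD. In all 8 genes the highest resistant library lay below the lowest parental library, as for *SYP* at 359.6 against 1192.

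In a bulk library, fewer cells that express a gene and less RNA per cell cannot be told apart. Of 16 identity markers, 11 were tested, and 5 were called higher and 2 lower, 45.5% and 18.2% against 17.8% and 19.8% of all genes tested. *COL1A1* rose from 59.7 ± 21.9 to 269 ± 34.7, *COL1A2* from 86.0 ± 14.0 to 201 ± 85.6, *VWF* from 276 ± 54.5 to 465 ± 22.0 and *YAP1* from 48.9 ± 6.86 to 111 ± 16.1 (SD, n = 3). *VIM*, between 3.13 and 45.8, was called higher with overlapping groups, while *EPCAM* and *KRT8* were called lower at log2 differences of -0.23 and -0.22. The other epithelial markers, *KRT18* at -0.16 and *CDH1* at 0.03, were not called. After local centring *EPCAM* was at -0.17 and no longer called. *KRT8*, whose neighbours had a median of -0.63, was then called higher at 0.41. *KRT18*, whose neighbours had a median of -0.64, was then also called higher, at 0.48. *CDH1* stayed uncalled after centring, at 0.05. *FN1*, a matrix protein of mesenchymal cells, was at 87.5 ± 38.3 in parental and 62.3 ± 13.6 in resistant libraries (SD, n = 3) and was not called, with overlapping groups. *PTPRC*, *CD3E* and *PECAM1*, which define leukocytes and endothelium, had no library above 3 reads. The part of these markers in the fall of the RE1 genes was not tested.

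Genes were also chosen by sequence alone, a step added after the data were seen. An exact match of both RE1 arms lay within 5 kb of the start of 283 genes, of which 83 had a mean of at least 10 and were tested. Of these, 39 were called lower and 13 higher in resistant cells, 47% and 15.7% against 19.8% and 17.8% of all genes tested. Their median log2 difference was -0.37. With the 11 genes of the written lists left out, 72 were tested, 30 were lower and 11 higher, with a median of -0.30. Here too some genes passed the minimum mean through their parental values alone. Among them were *XKR7* and *HRH3*, with parental means of 219 and 88.5 and resistant means of 9.48 and 4.66. Genes high only in resistant cells could pass in the same way, so these shares are a description.

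The share called lower was 55.6% of the 36 genes whose nearest exact match was within 1 kb of the start. It was 40.4% of the 47 genes farther away, against 19.8% of all genes tested. Of the 36 genes, 5 were called higher. Both groups of this split still hold genes of the written lists, which were chosen with earlier results known. An effect of distance was not tested. Where the best match had 1 mismatch, 187 of 768 tested genes were lower and 127 were higher, with a median of -0.05. These were 24.3% and 16.5%, near the 19.8% and 17.8% of all genes tested. The 83 genes had 77 distinct matches, since some starts lie side by side and share one. Among genes in no list, chosen here after their values were seen as those with the smallest p, *MMP24*, a membrane protease, was 268, 221 and 188 in parental and 14.6, 14.6 and 16.2 in resistant libraries. *SCN3B*, a sodium channel subunit, was 864, 759 and 703 in parental and 236, 234 and 208 in resistant libraries. *DLGAP3*, a postsynaptic scaffold, was 533, 675 and 600.4 in parental and 149, 171 and 155 in resistant libraries.

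**Figure D5:**
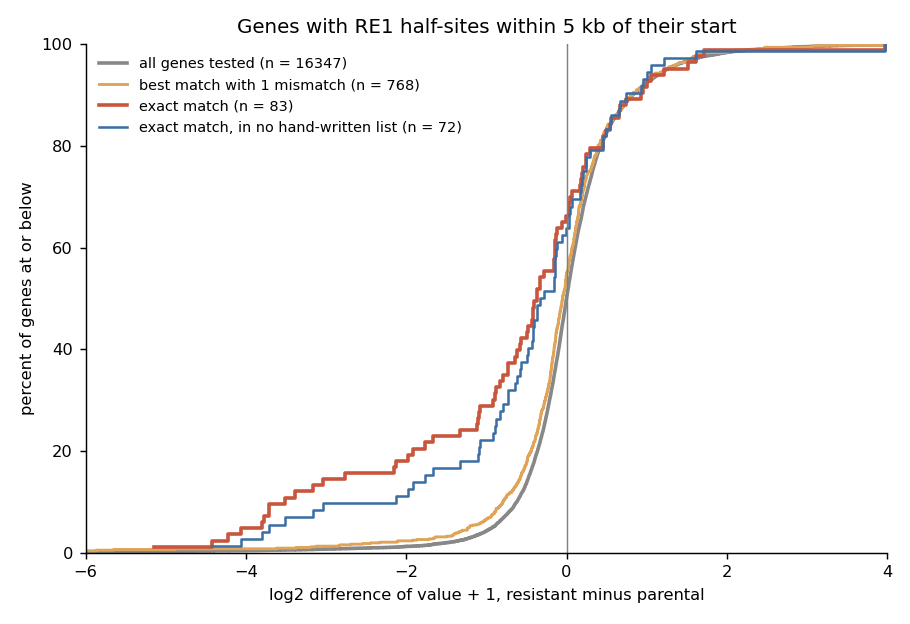
Percent of genes (vertical axis) at or below each log2 difference of value + 1, resistant minus parental (horizontal axis, drawn from -6 to 4), for all 16347 genes tested (grey), 768 genes with a best RE1 match of 1 mismatch (orange), 83 with an exact match (red) and the 72 of these in no written list (blue). Below 0 lay 55 of the 83 genes of the red curve, 46 of the 72 of the blue, 420 of the 768 of the orange and 8191 of all 16347.

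Of the 45 tested genes of both target lists, 21 had a match with at most 1 mismatch within 5 kb, and 17 of these were called lower and 2 higher, 81% and 9.52%. Of the 24 without such a match, 17 were lower and 0 higher, 70.8% and 0%, where all genes tested had 19.8% lower and 17.8% higher. *INSM1*, *SNAP25*, *TUBB3* and *UNC13A* were among those without one. Both lists were written with earlier results of these data known, so these shares are a description. The search held to a gap of 2 bases and at most 1 mismatch, so it cannot tell which genes lack an RE1.

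In the narrower RefSeq promoter windows (GRCh38.p14), from 250 bases before to 50 after the start, a match with up to 2 mismatches was found in 2.01% of 27305 promoters. It was found in 5 of 32 promoters of the neuronal list, *SYN1*, *CDK5R1*, *SCAMP5*, *MAP1B* and *TUBB3*, in 1 of 12 of the secretory list, *VGF*, and in 1 of 28 of the other subunits, *ING1*. Promoters of 9 of the 10 members were at hand, all but that of *RCOR2*, and none of the 9 held one. *SRRM4* had a match with 1 mismatch 301 bases after its start, shown here because this splicing factor acts on *REST* and was itself listed at 0.

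SRRM4, chr12:118981833-118981853, plus strand: ttCAGCACTttGGACAGcgcc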

How the data were processed

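Total RNA of parental and onvansertib-resistant H526 cells was sequenced in 3 libraries per group. The authors trimmed reads with Trimmomatic 0.38 and quantified genes of Gencode v43 on GRCh38 with RSEM 1.3.1 and STAR, and the authors normalized the counts with DESeq2 1.30.0. Each deposited number is thus a normalized signal for 1 gene in 1 library, with no pooling of replicates. Of 62757 rows, 47 second copies of pseudoautosomal genes were left out. Symbols, positions and lengths (MANE Select transcript, otherwise the longest) came from Gencode v44, which matched 62639 of 62710 rows.

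Genes with a mean of at least 10 were put on the log2(value + 1) scale. In R 4.3.3, limma 3.58.1 fitted condition as the only term and let the variance depend on the mean level. P-values were adjusted by Benjamini-Hochberg over all 16347 genes, with a threshold of 0.05. The study's Wald test needs counts and was not used here. The fit was tested on simulated data. Joins, summaries and plots were made in Python 3.11.15 (pandas 2.3.3, numpy 2.4.6, matplotlib 3.10.9).

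The members and lists were chosen with earlier results of these data known. Named genes were all members, up to 6 called higher and 6 lower per list by smallest p, the 5 genes most like *REST*, and 15 fixed regulators and targets. A few of these are not reported here. Alternatives were upper-quartile scaling, quantile normalization, no trend, local median centring over 51 genes, each library left out in turn, a pseudocount of 0.1 or of 10, and a minimum mean of 50 or none. Centring takes from each library the median deviation from the parental mean of the 51 tested genes around each gene.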

Additional observations from a re-analysis of the deposited data

How the results depend on the processing

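No paired analysis was possible because the labels do not say which parental library, 1 to 3, shares an extraction time with which resistant library, 7 to 9. *REST* and *HDAC1* kept their call and direction in all 14 alternatives, at log2 differences from 0.56 to 0.69 and from -0.41 to -0.29. Local median centring moved the number of members called from 7 to 3. *RCOR1* at 0.088, *RCOR2* at -0.14, *HMG20B* at -0.10 and *SIN3A* at -0.074 were no longer called, and of these only *SIN3A* changed sign. Centring also moved the other subunits called higher from 8 to 3 and the turnover genes called lower from 5 to 2. *CTDSP2* changed sign to 0.038 and was no longer called. The cause was not tested. *KDM1A* lost its call without the filter (-0.18), with upper-quartile scaling (-0.12), with quantile normalization (-0.027), without the trend (-0.18) and in 5 of the 6 fits with a library left out, where it ranged from -0.20 to -0.15. Without the trend the other subunits called were 5 higher and 5 lower. With a library left out they were 5 to 8 higher and 6 to 8 lower. With a minimum mean of 50 the neuronal list had 1 gene called higher in place of 2, since *GRIN1*, with a mean of 34.4, was then not tested. Over all genes, 4784 to 5618 were called with a library left out, against 6161. The neuronal genes called lower were 19 to 23 in the same fits and all 10 tested secretory genes stayed lower, while the exact RE1 genes called lower were 31 to 44 in all 14 alternatives. Of 503 values of 36 named list genes under the alternatives, 486 kept their side of the threshold, 14 lost the call, 1 gained it and 2 changed sign. A change of sign was counted where the gene was called with or without the alternative. Depth limits the low genes, such as *UNC13A* and *CDK5R2*, whose resistant values lie near 3 reads.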
